A study of Mus musculus with 12 samples.

Results

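Trh, Enox1, Aoah, Rpph1 and Krtdap are 5 genes whose response to overexpression (OE) against its control (EV) differed between day 2 and day 6 of germ cell differentiation in culture. They are 5 of the 12955 genes in the deposited table, and all 5 were among the 12059 genes with enough signal to be tested. They were chosen by that difference between days in these same libraries, so their OE and EV values are given here as a description with no test. The rule of choice did not use the levels in dTAG13 and DMSO, and their comparison is the 1 test of these genes. Its estimate of spread is shared with the EV and OE libraries, so its p-values are not fully independent of the choice.

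The series followed Tex10 in PGCLCs (primordial germ cell-like cells) of the mouse, the cultured counterparts of the embryonic cells that later form sperm and eggs. PGCLCs were made from J1 male embryonic stem cells and sorted from embryoid bodies by CD61 (the product of Itgb3) and SSEA1. The 12 libraries of poly(A)-enriched RNA formed 6 groups of 2. On day 2 of the culture there were untreated EV and OE cells and cells given DMSO or dTAG13 for 2 days, and on day 6 there were untreated EV and OE cells. The labels write EV and OE only as abbreviations, name neither the promoter nor the construct behind OE, and do not say whether the 2 libraries of a group came from separate cultures. They do not say which protein dTAG13 acts on; the compound brings proteins that carry a matching tag to the cell's degradation machinery. All groups share the J1 background. The DMSO and dTAG13 cells are labelled as a separate arm of the design from EV and OE, and whether all of them come from 1 line is not stated.

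Trh encodes the precursor of thyrotropin-releasing hormone, a short peptide that neurons of the hypothalamus secrete. Enox1 encodes an oxidase at the outer face of the plasma membrane, Aoah an enzyme that strips fatty acyl chains from bacterial lipopolysaccharide, and Krtdap a small secreted protein of differentiating keratinocytes. Rpph1 is not translated: it is the catalytic RNA of RNase P, the complex that trims the 5′ ends of tRNA precursors, and it is made by RNA polymerase III, so it has no long poly(A) tail of its own.

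Levels are FPKM, fragments per kilobase of transcript scaled to library size, which allow genes of different length to be set side by side. Summed FPKM ran from 550230 to 673435 per library, and reads per library were not given, so the precision of low values is unknown. Tex10 stood at 378 and 403 FPKM in OE against 119 and 145 in EV on day 2, and at 259 and 269 against 65.7 and 81.5 on day 6. In dTAG13 Tex10 RNA was 36.5 and 45.2 FPKM against 56.8 and 61.7 in DMSO, a readout of its RNA and not of its protein. D2_dTAG replicate 1 stood apart from the other libraries: 2008 genes were listed at 0 in it, against 18 to 127 elsewhere. Of 12 germ cell marker genes 11 were in the table, and their summed FPKM lay between 1050 and 1604 in every library, although Itgb3 itself was at 0 to 4.39 FPKM. The sum also counts Pou5f1, Nanog and Sox2, and by itself it does not show germ cell identity. Keratinocyte markers were represented by Krt10 alone, at 1.97 to 3.76 FPKM, and feeder fibroblast markers by Col1a1 alone, at no more than 0.834 FPKM. Endoderm markers (2 of 6 in the table) and mesoderm markers (3 of 6) summed to at most 6.39 and 1.90 FPKM. Other sums were higher: 51.5 to 132 FPKM for neural markers, 15.9 to 53.0 for macrophage and blood markers and 1.21 to 25.6 for trophoblast markers.

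Promoter sequence is shown for 3 of the genes because it bears on where their RNA starts: Trh, which has the highest FPKM and the largest difference between days; Krtdap, the 1 gene of the 5 with matches to the searched letters in its own RefSeq window; and Rpph1, whose promoter is shared with a neighbour. The sequences are those of RefSeq on GRCm38.p6 (mm10), 5′ to 3′ on the strand of each gene. They end at the base before its start, by RefSeq for Trh and Krtdap and by the GENCODE annotation for Rpph1. GENCODE places the Krtdap start at 30787896, inside the sequence shown. Letters searched on both strands were TATAAA (a core promoter box), ATTTGCAT (the octamer bound by POU factors), CACGTG (an E-box), TGACGTCA (a cAMP response element) and TGANTCA (an AP-1 site); matches are in capitals. Trh covers chr6:92244651-92244900 (minus strand), Krtdap chr7:30787655-30787904 (plus strand) and Rpph1 chr14:50807768-50807867 (minus strand).
Trh: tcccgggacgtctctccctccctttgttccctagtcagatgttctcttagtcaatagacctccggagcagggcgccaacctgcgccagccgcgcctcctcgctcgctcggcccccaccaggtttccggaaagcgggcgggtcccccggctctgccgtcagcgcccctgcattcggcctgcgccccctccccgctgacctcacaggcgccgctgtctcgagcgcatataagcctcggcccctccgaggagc
Krtdap: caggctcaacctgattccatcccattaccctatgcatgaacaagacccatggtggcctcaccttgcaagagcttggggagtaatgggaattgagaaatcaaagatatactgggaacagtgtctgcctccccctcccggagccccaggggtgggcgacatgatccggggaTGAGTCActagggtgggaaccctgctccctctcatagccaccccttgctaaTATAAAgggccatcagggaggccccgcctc
Rpph1: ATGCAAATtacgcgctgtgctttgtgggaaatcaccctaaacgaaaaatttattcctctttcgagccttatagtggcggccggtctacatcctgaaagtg
The Trh window held no exact match to any of the 5 motifs. Near matches were not searched, so this does not show that Trh lacks a core promoter box or a cAMP response element. In the Krtdap window TATAAA began 30 bases before the RefSeq start and TGAGTCA 81 bases before it. Over 32544 mouse promoters of 300 bases, 13.6% held TATAAA and 7.79% held TGANTCA. The promoter table has no entry for Rpph1, so its stretch was read from the window of Parp2, which starts on the opposite strand. GENCODE places the Parp2 start at 50807841, inside the stretch shown for Rpph1. Its octamer, ATGCAAAT on this strand, lies 93 bases from the Rpph1 start, and 1.75% of the promoters held an octamer on either strand. The Parp2 window also holds CACGTG, which 7.17% of promoters held, inside the Rpph1 gene itself. No searched letters were found in the Enox1 and Aoah windows, whose GC contents were 70.3% and 43%, against 67% for the 300 bases at Trh and 56.3% at Krtdap; 1.80% of promoters held TGACGTCA. These are matches of letters and say nothing about binding.

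Trh lies on chromosome 6 (92242061 to 92244650, minus strand) and has 1 annotated transcript of 1384 exonic bases. Its FPKM was 135 and 133 in the 2 EV libraries of day 2 and 296 and 316 in OE. On day 6 it was 68.6 and 92.8 in EV and 26.5 and 19.3 in OE. OE was thus above EV on day 2 and below it on day 6, with no overlap of libraries on either day. The group means were 134 ± 1.93 and 306 ± 14.2 FPKM on day 2 (SD, n = 2), 2.28 times higher in OE, and 80.7 ± 17.1 and 22.9 ± 5.14 FPKM on day 6 (SD, n = 2), 3.53 times lower in OE. On the log2(FPKM + 1) scale these differences were 1.19 and -1.78 (SE 0.17 each), and their difference, day 6 minus day 2, was -2.96 (SE 0.24). Between day 2 and day 6 the mean was 1.66 times lower in EV and 13.4 times lower in OE. In such bulk samples, fewer cells carrying a transcript and less of it per cell cannot be told apart.

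**Figure D1:**
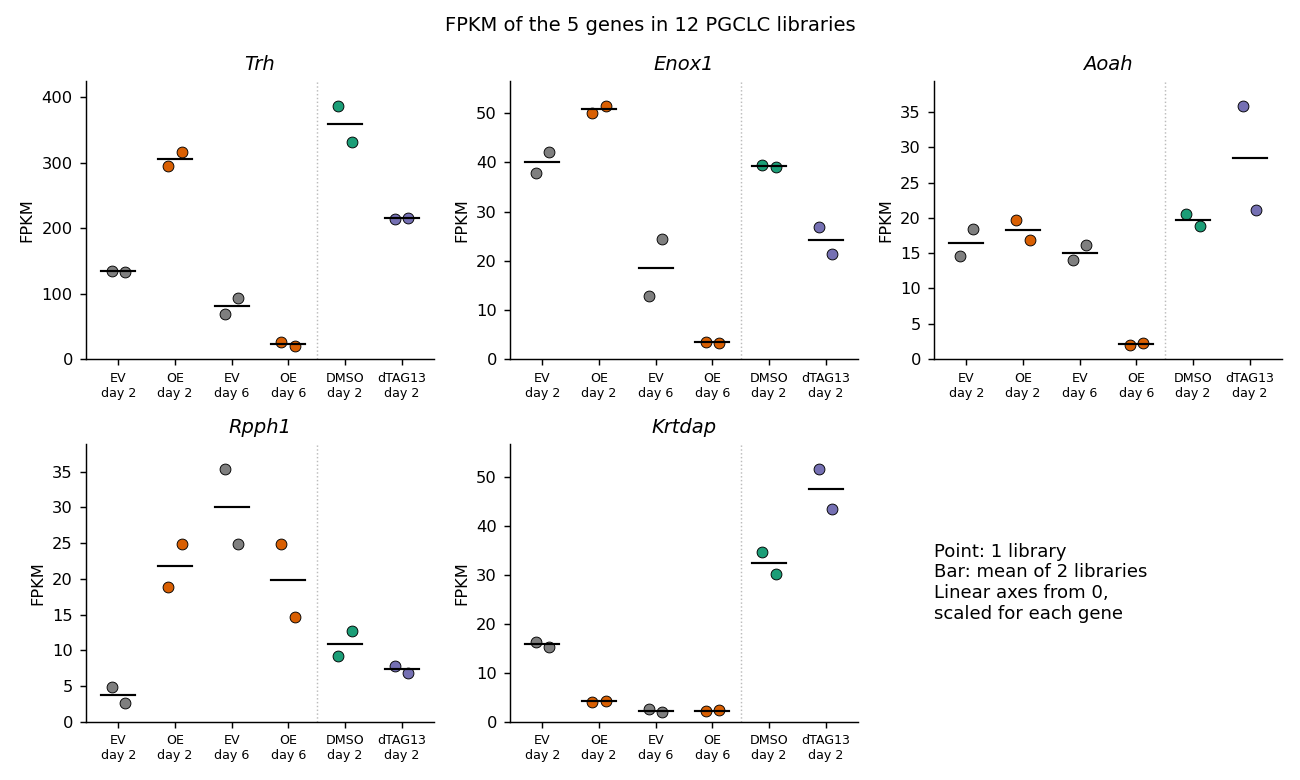
FPKM of the 5 genes (y axes, linear from 0, each scaled to its gene) in the 6 groups (x axes), with 1 point per library and a bar at the mean of 2 libraries; the dotted line parts the EV and OE groups from DMSO and dTAG13. Trh, Enox1 and Aoah are lowest in OE at day 6, Rpph1 is lowest in EV at day 2, and Krtdap is at 4.30 FPKM or less in OE at day 2 and in both day 6 groups.

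A gene is said to pass where its p from limma, adjusted by Benjamini-Hochberg over all 12059 tested genes, is below 0.05. On day 2 the OE effect passed for 3 of the 5 (Trh and Rpph1 higher, Krtdap lower), beside 102 of 12059 genes, or 0.846%. On day 6 it passed for 3 of the 5 (Trh, Enox1 and Aoah, all lower), beside 448 genes, or 3.72%. The difference between days passed for all 5, beside 28 genes, or 0.232%. Because the 5 were chosen on these contrasts, the counts describe the choice and nothing is read from them. Ranked by size among the 28, the difference of Trh came 1st, Rpph1 2nd, Aoah 3rd, Enox1 5th and Krtdap 15th. Gadd45g, a stress-inducible gene, stood between Aoah and Enox1 at 2.50, and Gm21283 followed Enox1 at -2.40. Dnmt3l, a partner of the DNA methyltransferases, stood just above Krtdap at -1.74 and Pla2g1b just below it at -1.70. At the edge of the threshold, Stmn1 was the last gene inside, with a difference of -0.93, and Gap43 the first outside, with -1.77.

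**Figure D2:**
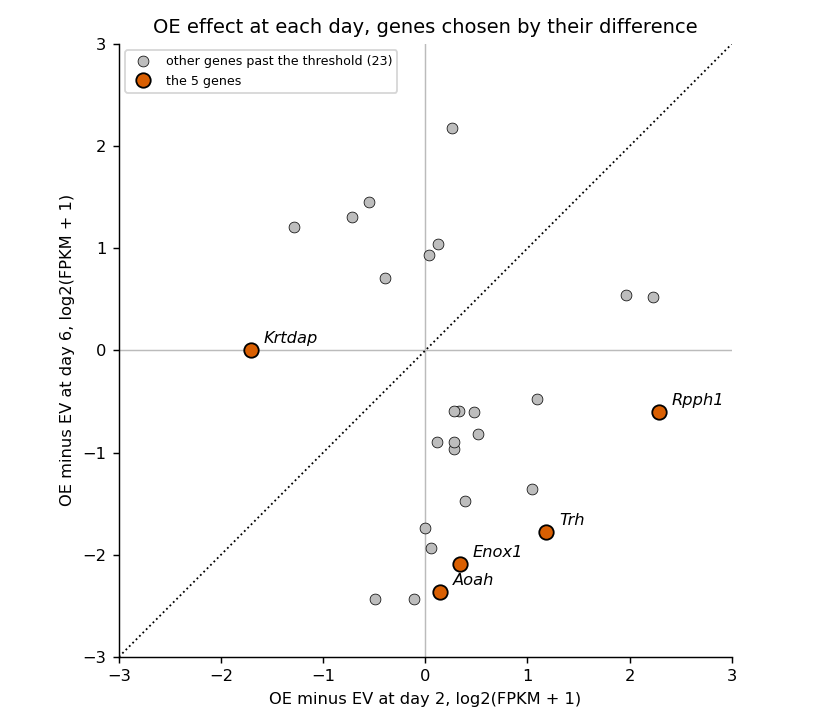
OE minus EV on day 2 (x axis) against OE minus EV on day 6 (y axis), both as differences of log2(FPKM + 1), for the 28 genes whose effects differed between days; large points are the 5 genes, small points the other 23, and the dotted diagonal marks equal effects. Trh and Rpph1 lie to the right of 0, at 1.19 and 2.29 on day 2, Enox1 and Aoah lie near 0 on day 2 and at -2.09 and -2.37 on day 6, and Krtdap lies at -1.71 on day 2 and 0.00 on day 6.

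Enox1 spans 564998 bases of chromosome 14 (77156763 to 77721760, plus strand). Its FPKM was 37.9 and 42.1 in EV and 50.1 and 51.4 in OE on day 2. On day 6 it was 12.8 and 24.3 in EV and 3.54 and 3.24 in OE. OE libraries of day 2 were above those of EV by a small margin, 1.27 times in the mean, and the day 6 libraries of OE were far below, 5.48 times. The log2 differences were 0.34 and -2.09 (SE 0.24 each) and their difference was -2.43 (SE 0.34). The 2 EV libraries of day 6 differed from each other by more than those of any other group of this gene, with a mean of 18.6 ± 8.14 FPKM (SD, n = 2). Leaving out one or the other moved the day 6 difference between -1.65 and -2.53. Between days the Enox1 mean was 2.16 times lower in EV and 15.0 times lower in OE. The gene body holds 7 other annotated features, among them antisense transcripts, none of them in the table, and strand is not stated for the counting.

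Aoah lies on chromosome 13 (20794113 to 21036617, plus strand) and has 4 annotated transcripts. Its FPKM was 14.6 and 18.4 in EV and 19.7 and 16.8 in OE on day 2, where the groups overlapped. On day 6 it was 14.0 and 16.2 in EV and 1.95 and 2.29 in OE, with no overlap. Aoah therefore held a similar range in EV on both days, and OE on day 6 was the only group with both libraries below 14.0 FPKM. Group means on day 6 were 15.1 ± 1.58 FPKM in EV and 2.12 ± 0.24 FPKM in OE (SD, n = 2), 7.13 times lower in OE. The log2 differences were 0.14 on day 2 and -2.37 on day 6 (SE 0.24 each), and their difference was -2.51 (SE 0.34). The small day 2 value was -0.01 without D2_EV replicate 1. Of 10 macrophage and blood markers, cells in which Aoah is known to be active, 4 were in the table (Cd68, Itgam, Fcer1g and Spi1). Their summed FPKM was 32.7 to 36.7 in EV and 15.9 to 17.4 in OE on day 2, and 50.1 to 53.0 in EV and 29.5 to 32.3 in OE on day 6. The sum was thus lower in OE than in EV on both days, and its part in the Aoah values was not tested.

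Rpph1 lies on chromosome 14 (50807449 to 50807767, minus strand) and is 319 bases long. Its FPKM was 4.91 and 2.65 in EV and 18.9 and 24.8 in OE on day 2. On day 6 it was 35.4 and 24.8 in EV and 24.9 and 14.7 in OE, where the groups overlapped. EV on day 2 was thus the group with the lowest Rpph1 level, and OE on day 2 was within the range of the day 6 libraries. The day 2 means were 3.78 ± 1.60 FPKM in EV and 21.8 ± 4.21 FPKM in OE (SD, n = 2), 5.78 times higher in OE. On day 6 they were 30.1 ± 7.50 FPKM in EV and 19.8 ± 7.21 FPKM in OE (SD, n = 2). The log2 differences were 2.29 and -0.60 (SE 0.32 each) and their difference was -2.89 (SE 0.45), the largest error among the 5 genes. Leaving out either OE library moved the day 6 value between -0.24 and -0.97. From day 2 to day 6 the mean was 7.96 times higher in EV, and the OE libraries of both days overlapped. On log2, day 6 minus day 2 was 2.72 in EV and -0.17 in OE for Rpph1, so EV differed more between days. For Trh, Enox1 and Aoah OE differed more, with -3.70, -3.56 and -2.63 in OE against -0.74, -1.13 and -0.11 in EV.

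The count of Rpph1 is uncertain. Of its 319 bases, 233 are also exonic in Ccnb1ip1, a gene of meiotic crossing-over on the same strand, of which 1 of 2 annotated transcripts reaches that far. Parp2, a DNA damage-activated poly(ADP-ribose) polymerase, starts 74 bases away on the opposite strand in GENCODE. Ccnb1ip1 stood at 14.7 to 32.1 FPKM over the 12 libraries, with log2 OE differences of 0.08 on day 2 and 0.37 on day 6. Parp2 stood at 52.2 to 81.4 FPKM, with differences of -0.11 and -0.03. Neither passed the threshold in any of the 4 comparisons (adjusted p from limma over all genes). How the authors assigned fragments in the shared bases is not given in the sources used here. The libraries were poly(A)-enriched, and what form of the RNA its fragments come from was not tested.

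**Figure D3:**
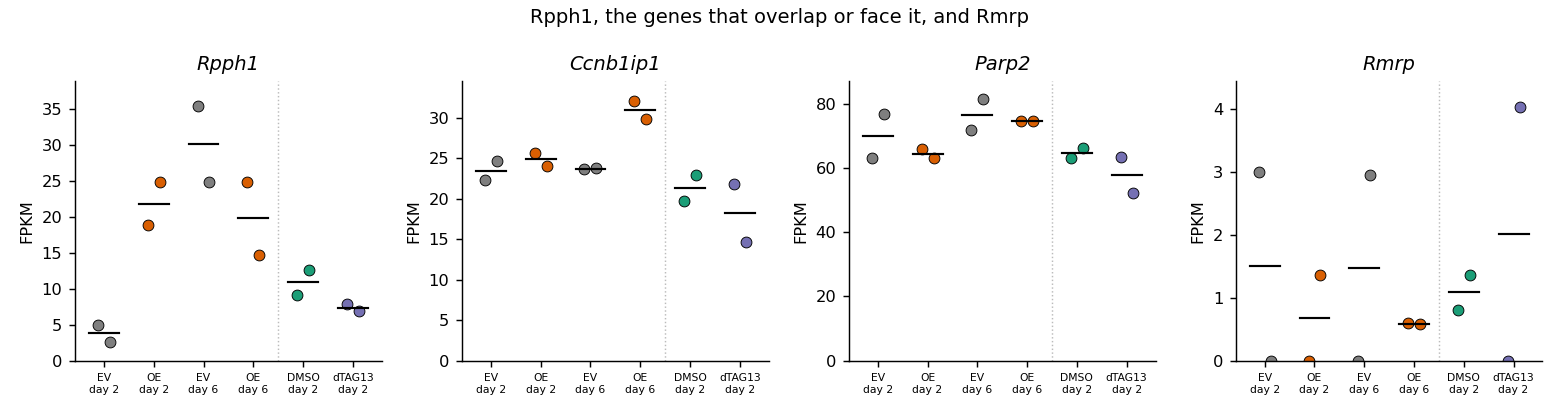
FPKM (y axes, linear from 0) of Rpph1, of Ccnb1ip1, which overlaps it, of Parp2, which starts beside it, and of Rmrp, the RNA of RNase MRP, in the 6 groups (x axes), with 1 point per library and a bar at the mean of 2. Rpph1 is below 5 FPKM in both EV libraries of day 2, while Ccnb1ip1 and Parp2 are at 22.3 FPKM or more there and Rmrp is at 4.03 FPKM or less in every library.

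All 14 genes of the RNase P and RNase MRP list other than Rpph1 were tested, and 0 of 14 passed for OE at day 2, for OE at day 6 or for the difference between days (limma; 1, 0 and 2 had an unadjusted p below 0.05). Their median log2 difference was 0.17 on day 2 and -0.09 on day 6, against 0.04 and 0.05 for all genes. The shares of all genes that passed were 0.846% for OE on day 2, 3.72% for OE on day 6 and 0.232% for the difference. Rmrp, the partner RNA in RNase MRP, was listed at 0 in 1 library each of EV and OE on day 2, of EV on day 6 and of dTAG13. Of 9 small RNAs without a poly(A) tail, 4 were in the table and tested (Rmrp, Scarna13, Terc and Vaultrc5). Terc, the template RNA of telomerase, was listed at 0 in both EV libraries of day 2 and stood at 2.58 and 3.56 FPKM in OE (adjusted p = 0.040, limma). On day 6 Terc was at 0.42 and 1.25 FPKM in EV and listed at 0 in both OE libraries. Terc lost its call when any 1 of the 4 day 2 EV and OE libraries was left out. Replication-dependent histone genes were listed by symbol, and their transcripts mostly lack a poly(A) tail. On day 2, 0 of 43 passed (3 at an unadjusted p below 0.05, limma). On day 6, 1 of 43 passed (Hist1h2bc, lower by 0.87 on log2, -0.87, adjusted p = 0.038, limma). Hist1h2bc averaged 27.3 FPKM over all libraries, and whether its RNA carries a tail was not tested. The medians of the 43 genes were 0.16 and -0.03, against 0.04 and 0.05 for all genes. For dTAG13 2 of 43 passed, both lower, beside 8.21% of all genes that were lower (Hist1h2bb, -0.79, adjusted p = 0.0356, and Hist1h3h, -1.22, adjusted p = 0.0177, limma). Both stood at 1.65 FPKM or less in DMSO and dTAG13, and neither passed with quantile normalization (-0.18, adjusted p = 0.694, and -0.84, adjusted p = 0.0876).

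Krtdap lies on chromosome 7 (30787896 to 30791097, plus strand) and has 9 annotated transcripts. Its FPKM was 16.3 and 15.3 in EV and 3.98 and 4.30 in OE on day 2. On day 6 it was 2.52 and 2.04 in EV and 2.12 and 2.45 in OE, where the groups overlapped. Of these 4 groups EV on day 2 alone stood above 5 FPKM, and all 4 libraries of day 6 were lower than any of day 2. The means were 15.8 ± 0.71 FPKM in EV and 4.14 ± 0.23 FPKM in OE on day 2 (SD, n = 2), 3.81 times lower in OE, and 2.28 ± 0.33 and 2.28 ± 0.23 FPKM on day 6 (SD, n = 2). The log2 differences were -1.71 and 0.00 (SE 0.18 each), and their difference was 1.71 (SE 0.25), the only positive one among the 5 genes. Between days the mean was 6.93 times lower in EV and 1.82 times lower in OE. Its EV mean was lower on day 6 than on day 2 by 2.36 on log2 (-2.36) and its OE mean by 0.65 (-0.65), so for Krtdap, as for Rpph1, EV differed more between days than OE did.

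Beside Krtdap on chromosome 7 lie Dmkn and Sbsn, which encode other secreted proteins of the epidermis. Dmkn was at 2.67 and 1.14 FPKM in EV and 0.27 and 0.15 in OE on day 2. Sbsn stood at 1.88 and 2.68 FPKM in EV, and OE had 0.85 and 0. Both were lower in OE on day 2, by a log2 difference of -1.22 for Dmkn and -1.26 for Sbsn, but neither passed the threshold (adjusted p = 0.166 and 0.146, limma). On day 2 their levels were below those of Krtdap in both groups, and on day 6 the OE and EV groups overlapped for both. Among all genes 0.846% passed for OE on day 2, 3.72% for OE on day 6 and 0.232% for the difference. Of the 23 epidermal differentiation genes 9 were in the table and tested. None of the 9 passed for OE at day 2, for OE at day 6 or for the difference (limma; 3, 0 and 2 had an unadjusted p below 0.05), and their median log2 difference was -0.29 on day 2 and -0.09 on day 6. The highest sum of keratinocyte markers, that is of Krt10, was in dTAG13, at 2.35 to 3.76 FPKM.

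**Figure D4:**
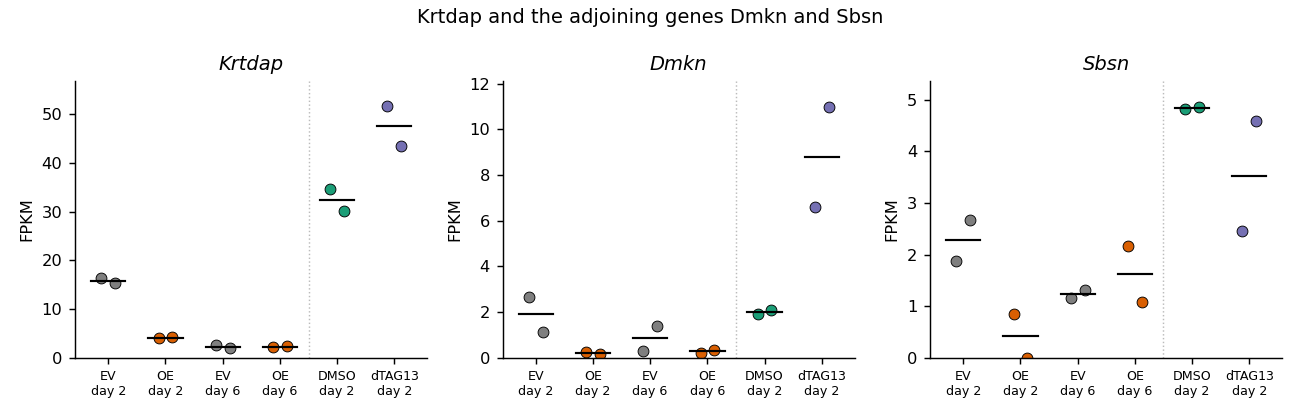
FPKM (y axes, linear from 0, each scaled to its gene) of Krtdap and of the adjoining genes Dmkn and Sbsn in the 6 groups (x axes), with 1 point per library and a bar at the mean of 2. All 3 are lower in OE than in EV on day 2, and Dmkn and Krtdap are highest in dTAG13, at 6.62 to 11.0 and 43.5 to 51.6 FPKM.

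The dTAG13 comparison tested the 5 genes on levels that the choice did not use. All 12 libraries share the estimate of spread, so p may be too low for genes chosen on EV and OE. Trh fell in dTAG13, and the other 4 did not pass: 1 of 5, beside 1473 of 12059 genes, or 12.2% (483 higher and 990 lower). The median gene stood at -0.13 in this comparison, and quantile normalization gave 730 higher and 704 lower, and median-ratio scaling 707 and 596, so directions are also given relative to that median. Trh was at 387 and 332 FPKM in DMSO and 214 and 216 in dTAG13, with no overlap. Its log2 difference was -0.73 (SE 0.17, adjusted p = 0.0240, limma), or -0.61 relative to the median gene, and it was lower in 2 of 2 libraries. The call for Trh was lost without D2_DMSO replicate 1 (-0.62, adjusted p = 0.172) and without D2_DMSO replicate 2 (-0.84, adjusted p = 0.0888), and also when limma was given only the 2 groups compared (adjusted p = 0.272). Without D2_dTAG replicate 1, the library with many genes at 0, the Trh difference was -0.73.

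Enox1 was at 39.4 and 39.0 FPKM in DMSO and 26.9 and 21.4 in dTAG13, a log2 difference of -0.69 (SE 0.24, adjusted p = 0.0919, limma). It was -0.84 without D2_dTAG replicate 1 and -0.53 without D2_dTAG replicate 2. Enox1 was thus lower in both dTAG13 libraries, by an amount that depended on which of them was used. Aoah was at 20.5 and 18.9 FPKM in DMSO and 35.8 and 21.2 in dTAG13, a difference of 0.47 (SE 0.24, adjusted p = 0.210, limma). The higher of its dTAG13 values came from D2_dTAG replicate 1, without which the difference was 0.10, and without replicate 2 it was 0.83. The size of the Aoah difference was thus set by which dTAG13 library was used. Rpph1 was at 9.15 and 12.7 FPKM in DMSO and 7.85 and 6.87 in dTAG13, a difference of -0.50 (SE 0.32, adjusted p = 0.309, limma). This Rpph1 value was -0.71 without D2_DMSO replicate 1 and -0.28 without D2_DMSO replicate 2. Krtdap was at 34.6 and 30.1 FPKM in DMSO and 51.6 and 43.5 in dTAG13, a difference of 0.54 (SE 0.18, adjusted p = 0.0759, limma). The Krtdap value was 0.42 without D2_dTAG replicate 1 and 0.66 without D2_dTAG replicate 2. Relative to the median gene the differences of Enox1, Aoah, Rpph1 and Krtdap were -0.56, 0.59, -0.37 and 0.67.

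Side by side, the log2 differences for OE on day 2 and for dTAG13 were 1.19 and -0.73 for Trh, 0.34 and -0.69 for Enox1, and 0.14 and 0.47 for Aoah. They were 2.29 and -0.50 for Rpph1 and -1.71 and 0.54 for Krtdap. The OE values took part in the choice, so no count of shared or opposite signs is drawn from them. Dmkn, beside Krtdap, rose in dTAG13, from 1.92 and 2.11 FPKM to 6.62 and 11.0 (log2 difference 1.67, adjusted p = 0.0160, limma). It is the 1 of 9 epidermal genes that passed, beside 12.2% of all genes. Sbsn, on the same stretch, was at 4.81 and 4.86 FPKM in DMSO and 2.46 and 4.58 in dTAG13 (-0.41, adjusted p = 0.438, limma). The median of the 9 genes was 0.07, against -0.13 for all genes. Trophoblast markers (Gata3, Krt7, Hand1 and Plac1, 4 of 7 in the table) summed to 7.43 to 8.73 FPKM in DMSO and 10.6 to 25.6 in dTAG13, and macrophage and blood markers to 27.1 to 28.2 and 39.1 to 49.1. Their part in the dTAG13 values of Aoah and Krtdap was not tested.

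The 2 day 2 control groups, EV and DMSO, differed from each other for several of the 5 genes. Tex10 RNA differed too, at 119 and 145 FPKM in EV and 61.7 and 56.8 in DMSO. These levels are described without a test, since EV took part in the choice. Trh in DMSO averaged 359 ± 38.3 FPKM (SD, n = 2), 2.68 times its level in EV and above that in OE. Rpph1 was 2.89 times higher in DMSO than in EV and Krtdap 2.05 times higher, while Enox1 overlapped (39.0 to 39.4 against 37.9 to 42.1 FPKM). On log2, DMSO minus EV was 1.41 for Trh and 1.34 for Rpph1, beside OE differences of 1.19 and 2.29 on day 2. EV and OE on one side and DMSO and dTAG13 on the other differ in treatment and possibly in line, which cannot be told apart.

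The genes around Trh on chromosome 6 were also compared between the 2 day 2 controls. Of the 10 nearest table genes, 5 on each side (91878053 to 94700158), 10 of 10 were higher in DMSO than in EV on day 2. Their log2 differences ran from 0.15 to 1.08 with a median of 0.59, against 0.03 for all genes and 1.41 for Trh. Ccdc174, at one end of the stretch, was at 6.50 and 4.80 FPKM in EV and 13.1 and 12.9 in DMSO. Rbsn and Prickle2, the nearest on each side, were higher in DMSO by 0.72 and 0.18. Prickle2, Fgd5, Nr2c2 and Adamts9 had means of 0.23 to 0.43 FPKM and were too low to be tested. The share of all genes higher in DMSO than in EV was not counted. Around the other 4 genes, DMSO was above EV for 9 of 10 neighbours of Enox1 (median 0.27), 7 of 10 of Krtdap (0.13), 5 of 10 of Aoah (0.05) and 4 of 10 of Rpph1 (-0.12), and the difference between these stretches was not tested. For the 10 neighbours of Trh, OE minus EV differences ran from -0.15 to 0.24 on day 2 (median 0.03, Trh 1.19) and from -0.16 to 0.12 on day 6 (median 0.04, Trh -1.78), and 0 of the 6 tested passed on either day or for dTAG13 (limma; 0 had an unadjusted p below 0.05).

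**Figure D5:**
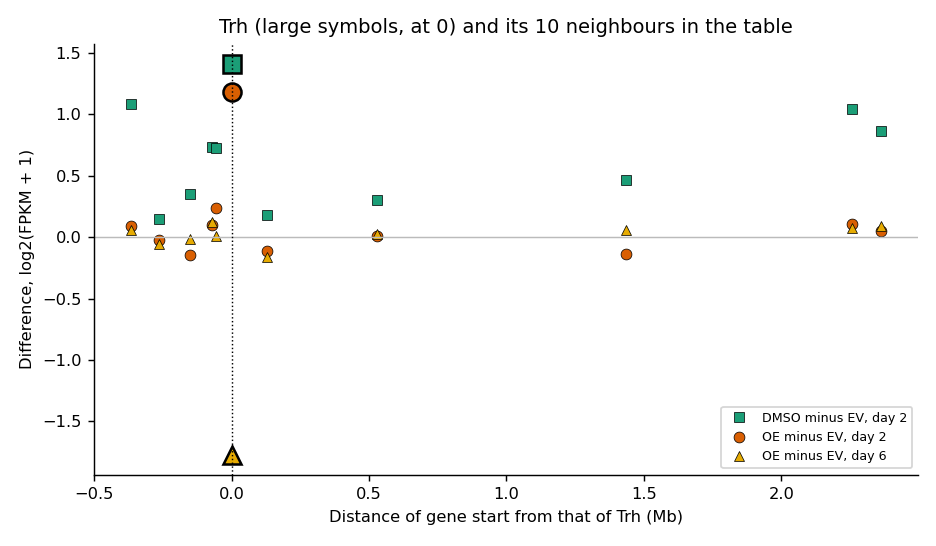
Difference of log2(FPKM + 1) (y axis) against the distance of each gene start from that of Trh in megabases (x axis), for Trh (large symbols at 0) and its 10 nearest table genes (small symbols); squares are DMSO minus EV on day 2, circles OE minus EV on day 2 and triangles OE minus EV on day 6. The squares of all 10 neighbours lie above 0, from 0.15 to 1.08, while their circles and triangles stay between -0.16 and 0.24.

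Neighbours of the other 4 genes were also counted, 10 each. Beside them, 0.846% of all genes passed for OE on day 2, 3.72% for OE on day 6 and 12.2% for dTAG13. Near Enox1 the median OE difference on day 6 was 0.14 (Enox1 -2.09), and 1 neighbour of 9 tested passed there, Serp2, which was higher (1.11, adjusted p = 0.0256, limma). Ccdc122 and Dnajc15, the nearest to Enox1, did not pass. Near Aoah, between Elmo1 and Trim27, the day 6 median was -0.10 (Aoah -2.37) with 0 of 10 passing (3 at an unadjusted p below 0.05, limma), and for dTAG13 Gpx6 was higher (1.50, adjusted p = 0.0333, limma). The Gpx6 value was 0.81 without D2_dTAG replicate 1 and 2.19 without D2_dTAG replicate 2, so its size depended on which dTAG13 library was used. Near Rpph1 the day 2 median was 0.09 (Rpph1 2.29) with 0 of 9 passing (1 unadjusted), and for dTAG13 Apex1 (-0.58, adjusted p = 0.0306, limma) and Pnp (-0.59, adjusted p = 0.0409, limma) were lower. Apex1 was -0.37 without D2_dTAG replicate 1 (adjusted p = 0.0547, limma) and lost its call with median-ratio scaling (-0.50, adjusted p = 0.0987) and without a trend (adjusted p = 0.0598), where Pnp also did not pass (adjusted p = 0.0506). Near Krtdap the day 2 median was 0.00 (Krtdap -1.71) with 0 of 9 passing (3 unadjusted), and the nearest on the other side, Ffar3, was too low to be tested.

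Genes that make or receive the TRH peptide were also followed. Over all genes 0.846% passed for OE on day 2, 3.72% for OE on day 6, 0.232% for the difference and 12.2% for dTAG13. Of 19 genes for TRH production and signalling 11 were tested, and 0 passed on day 2, for the difference or for dTAG13 (limma; 1, 1 and 2 had an unadjusted p below 0.05). On day 6 Pam, which amidates the end of peptide hormones, rose from 2.68 and 2.67 FPKM in EV to 5.57 and 6.93 in OE (log2 difference 0.97, adjusted p = 0.0317, limma). The list's median was 0.06 on day 2 and 0.13 on day 6, against 0.04 and 0.05 for all genes. Neural markers were followed because Trh is a neuropeptide gene: 6 of 8 were in the table, mostly through Tubb3. They summed to 99.3 to 110 FPKM in EV and 126 to 132 in OE on day 2, and to 69.9 to 72.4 in EV and 51.5 to 53.8 in OE on day 6. In DMSO they summed to 79.9 to 82.5 FPKM and in dTAG13 to 57.9 to 67.2. The part of these markers in the Trh and Enox1 values was not tested.

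For the lists that follow, the shares of all genes that passed were 0.846% for OE on day 2 and 3.72% for OE on day 6. They were 0.232% for the difference and 12.2% for dTAG13. For Enox1, the list of plasma membrane electron transport and cell surface oxidases had 12 of 16 genes tested. Vdac1, a channel of the outer mitochondrial membrane, rose in OE on day 6 from 225 and 239 FPKM to 407 and 397 (log2 difference 0.79, adjusted p = 0.00703, limma), and no other gene of the list passed in any comparison. Enox2, the paralogue of Enox1, stayed between 1.65 and 5.40 FPKM over all libraries. For Aoah, lipopolysaccharide handling had 11 of 15 genes tested, of which 0 passed in OE on day 2 or day 6 (limma; 0 and 2 had an unadjusted p below 0.05). Irak4 (-0.81, adjusted p = 0.0188, limma) and Traf6 (-0.70, adjusted p = 0.0380, limma), kinase and ligase of Toll-like receptor signalling, fell in dTAG13. Irak4 was at 1.004 and 0.817 FPKM in DMSO and at 0 and 0.18 in dTAG13, so its call rests on low values, 1 of them in the library with many genes at 0. With quantile normalization Irak4 was -0.39 (adjusted p = 0.144) and Traf6 -0.58 (adjusted p = 0.0595), and neither passed. With median-ratio scaling Traf6 was -0.62 (adjusted p = 0.0634). Rpp25, a protein of RNase P, fell in dTAG13 from 161 and 160 FPKM to 72.5 and 121 (-0.77, adjusted p = 0.0342, limma), the 1 of 14 genes of its list that passed. Its value was -0.40 without D2_dTAG replicate 1 and -1.14 without D2_dTAG replicate 2. The Rpp25 call was lost with quantile normalization (adjusted p = 0.0737), with median-ratio scaling (adjusted p = 0.0952) and without a trend (adjusted p = 0.0546). Each of these list genes, and each neighbour named as passing, lost its call when 1 library or another was left out.

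The order of levels set the 5 genes apart from each other. Trh ran from DMSO through OE on day 2, dTAG13, EV on day 2 and EV on day 6 to OE on day 6, and no neighbouring groups in that order overlapped. Enox1 was highest in OE on day 2 and lowest in OE on day 6. Between them EV on day 2 and DMSO overlapped, as did dTAG13 and EV on day 6. Aoah was highest in dTAG13 and lowest in OE on day 6, and its other 4 groups overlapped from 1 neighbour to the next. Rpph1 was lowest in EV on day 2, then dTAG13 and DMSO, and its 3 highest groups (EV on day 6 and OE on both days) overlapped. Krtdap descended from dTAG13 through DMSO, EV on day 2 and OE on day 2 to the 2 groups of day 6, which overlapped.

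Over the 12 libraries, log2 levels of Trh, Enox1 and Aoah ran together, and those of Rpph1 did not follow them. Pearson's r was 0.918 for Trh and Enox1, 0.869 for Trh and Aoah and 0.868 for Enox1 and Aoah, all 3 pairs sharing the low OE libraries of day 6. It was -0.727 for Rpph1 and Krtdap and between -0.280 and -0.357 for Rpph1 with the other 3. These are descriptions over n = 12 libraries in 6 groups. The OE and EV values that chose the 5 genes are among them, so the correlations partly reflect the choice and nothing is read from them. Among 7479 genes with a mean of 5 FPKM or more, the levels most like Trh were those of Tmsb4x (r = 0.969), Nfu1 (0.965) and Srp19 (0.965). Those most like Enox1 were Slc35a4 (0.968), Gemin6 (0.967) and Eif3l (0.965). Those most like Aoah were Platr21 (0.969), Id3 (0.968) and Platr17 (0.961). Id3, a target of BMP signalling, averaged 181 FPKM in EV and 32.9 in OE on day 6, against 292 and 270 on day 2. Id3 is itself 1 of the 28 genes whose OE effect differed between days. Most like Krtdap were Ptgr1 (0.982), Prep (0.965) and the metallothionein gene Mt1 (0.953), and most like Rpph1 were Nelfcd (0.888), Tmub1 (0.886) and Ift20 (0.880), the lowest best match of the 5.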

How the data were processed

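Poly(A)-enriched RNA of sorted mouse PGCLCs was sequenced as 12 libraries in 6 groups of 2, grouped by title and treatment label. Where a title misspelled the compound, the treatment label (dTAG13) decided. The submitters' processing notes name FastQC 0.10.1 for read quality, Trim Galore 0.6.3 with cutadapt (no version) for trimming, STAR 2.7.6a for alignment to mm10, and Cufflinks 2.2.1. FPKM for 12955 genes, computed by the authors, make up the deposited table. Every column had a lowest value of 1, and a length of 7 or more digits was found in 90.1% of entries from 1.1 to 2 but in 0% from 2 to 10, so an added 1 was inferred and subtracted. Depth per library is not given in the sources used here, so FPKM could not be turned into counts.

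The 12059 genes that reached 1 FPKM in 2 libraries were tested on log2(FPKM + 1) with limma 3.58.1 in R 4.3.3, in a linear model of all 6 groups with a trended prior variance (6 residual and 3.86 prior degrees of freedom). P-values are two-sided and Benjamini-Hochberg adjusted over all genes tested, with a threshold of 0.05. A pseudocount of 1 understates the change of low genes. With 2 libraries per group, which may share a culture, p-values measure only the spread between these libraries, which may be technical. The fit was also tried on simulated data with the same spread in every group. Those data held no library like D2_dTAG replicate 1, so they do not cover its effect on the calls.

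The 5 genes, the lists and the markers were chosen with earlier results of these data known. Further genes were named by rule: the 3 best Pearson correlations per member among named genes with a mean of 5 FPKM or more, the nearest of 5 table genes on each side, up to 3 list members past the threshold, and genes next in size to the members. Ccdc174, Dmkn, Sbsn, Ccnb1ip1, Parp2, Serp2, Gpx6, Apex1 and Pnp were named as neighbours or after their values were seen. Positions are those of GENCODE M21 (GRCm38, the same assembly as mm10), matched by symbol for 12426 genes, with 529 unmatched. Promoters of 250 bases before to 50 after a start came from RefSeq's GRCm38.p6. Alternatives covered the pseudocount, the filter, 2 scalings, a replicate block, no trend, only the groups compared, and each library left out. For list genes and neighbours that passed, they were added after seeing the data. Python 3.11.15, pandas 2.3.3, numpy 2.4.6 and matplotlib 3.10.9 were used.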

Additional observations from a re-analysis of the deposited data

Results flagged for a closer look

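The OE effect differed between day 2 and day 6 for each of the 5 genes, and this is what chose them, so the values are a description with no test. On the log2(FPKM + 1) scale, day 6 minus day 2 was -2.96 for Trh, -2.43 for Enox1, -2.51 for Aoah and -2.89 for Rpph1. It was 1.71 for Krtdap. The signs held under all 17 alternatives tried, with ranges of -3.18 to -2.74 for Trh, -2.87 to -1.76 for Enox1, -2.93 to -1.61 for Aoah, -3.25 to -2.13 for Rpph1 and 1.19 to 1.91 for Krtdap.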

How the results depend on the processing

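The number of genes past the threshold depended strongly on the fit, and the cause was not tested. For the difference between days, 28 genes in the reported fit became 53 with a pseudocount of 5, 151 with quantile normalization (65 higher and 86 lower, against 8 and 20), 49 with median-ratio scaling, 7 without a trend and 1194 in a fit of only the groups compared. For OE on day 2, 102 became 188 with quantile normalization, 171 with median-ratio scaling, 55 without a trend and 1382 in a fit of only the groups compared. For OE on day 6, 448 became 1048 with quantile normalization and 3495 in a fit of only the groups compared. For dTAG13, limma on only the groups compared passed 0 genes, and 1162 had an unadjusted p below 0.05. Leaving out 1 library gave 1 to 1688 genes for OE on day 2, 18 to 3044 for OE on day 6, 2 to 1336 for the difference and 203 to 7223 for dTAG13. The highest 3 of these OE counts came without D2_dTAG replicate 1, which enters the shared estimate of spread; the other omissions gave at most 19, 69 and 7. Those of dTAG13 were 247 and 203 without D2_DMSO replicates 1 and 2, and 2796 and 7223 without D2_dTAG replicates 1 and 2.

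With a replicate block, 98, 372, 21 and 1349 genes passed for OE on day 2, OE on day 6, the difference and dTAG13. The labels do not tie same-numbered libraries, whose deviations correlated at 0.13 (EV and OE, day 2), -0.12 (EV and OE, day 6) and -0.10 (DMSO and dTAG13), so they share only a number, and no member's dTAG13 call moved.

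Among the members, Krtdap also passed for dTAG13 with a pseudocount of 5 (0.49, adjusted p = 0.0383, limma) and with median-ratio scaling (0.62, adjusted p = 0.0425, limma). Adjusted p for dTAG13 ranged over 12 alternatives from 0.00415 to 0.272 for Trh, 0.0271 to 0.413 for Enox1, 0.00113 to 0.715 for Aoah, 0.214 to 0.723 for Rpph1 and 0.00359 to 0.453 for Krtdap, all with unchanged sign. Without 1 library the lone one left is assumed to vary like the other groups. The 14 list genes and neighbours that passed kept their sign under every alternative that gave a value, and all 14 lost the call when at least 1 of the libraries was left out. With unknown depth, values near 1 FPKM have unknown precision.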
